A study of Mus musculus with 8 samples.

Results

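Genomic imprinting silences the copy of a gene inherited from a given parent, so that the transcript comes from the maternal or the paternal allele alone. Many imprinted genes act on growth before and after birth. The paternally expressed genes Igf2, Dlk1, Peg3, Plagl1, Mest and Nnat mostly favour growth or the maintenance of immature cells, and the maternally expressed genes H19, Igf2r, Grb10 and Meg3 mostly restrain it. Most of them are abundant in the fetus and fall to low levels in adult tissue, and several lie side by side in domains that share a control region. These 10 imprinted growth genes were selected by name, and all 10 were found among the 23361 genes of the deposited table. The values carry no information on alleles, so the parental origin of a transcript was not analysed here.

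The table holds 5 carcinomas of the gastric squamous-columnar junction (SCJ), the border between the squamous forestomach and the glandular stomach, and the SCJ of 3 control stomachs. The cancers, labelled Trp53-/-Rb1-/-, arose in mice that were loxP/loxP at both Trp53 and Rb1 and carried the Ai9 reporter together with Lgr5-eGFP-Ires-CreERT2. In these mice the Cre recombinase is made from the Lgr5 stem cell locus and switched on by tamoxifen, which deletes both tumor suppressor genes and turns on the tdTomato reporter of Ai9. Tamoxifen was given at an age of 60 days in the survival cohort of this model and over a range of weeks around that age in tumor induction at large, and the age of the sequenced mice is not stated. The tumors were dissected along the borders of tdTomato at least 250 days after tamoxifen. The controls were wild type mice paired by age, so that the Cre, reporter and loxP alleles and the deletions all separate the groups and cannot be told apart. Some control mice of the model were injected with tamoxifen and others were not, and the sources used here do not say which holds for the 3 sequenced controls. The controls were separate stomachs, whereas the sources used here do not say that each tumor came from a separate mouse, so for the cancers p-values measure only the spread between tumors. No strain or sex is given for these libraries.

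Values are FPKM, that is fragments scaled to transcript length and library size, as the authors made them. They are rounded to whole numbers, so a level between 0 and 3 has few steps. Their sum was 403569 to 573858 across the cancers, against 887141 to 992550 among controls. The 10 most abundant genes took 11.1% to 19.6% of the sum in the cancers and 39.3% to 44.3% in the controls. Read numbers are unknown. A listed 0 need not mean absence, since pepsinogen C (Pgc) was at 28832 in control 1 and at 0 in controls 2 and 3. The 8 gastric gland markers together summed to 106563 to 169520 in the controls and to 520 to 52913 in the cancers, and the 8 neuroendocrine markers to 125 to 188 in the controls and 8047 to 17897 in the cancers. In bulk tissue fewer cells of a type and less RNA per cell cannot be told apart. Rb1 had 4, 4, 5, 6 and 4 FPKM in cancers 1 to 5 and 9, 9 and 10 in controls 1 to 3, whereas Trp53 had 12 to 30 and 16 to 19, and gene totals do not isolate the deleted exons.

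Peg3 and Meg3 were the imprinted growth genes that rose in the SCJ cancers, and Igf2r fell, on the scale of the deposited FPKM. Mest and Nnat stood higher in most cancers without passing the test. H19, Igf2, Grb10 and Plagl1 had at most 10 FPKM in any library and no difference past the test, and Dlk1 was listed at 0 in all controls. Of the 10 genes, 9 passed the filter of at least 1 FPKM in at least 3 libraries, Dlk1 being the exception. Among these 9, 2 genes were higher (22.2%) and 1 was lower (11.1%) in limma on log2(FPKM + 1), with a threshold of 0.05 for the adjusted p. Among all 14357 genes tested, 16.2% were higher and 18.3% were lower, so the share of calls among the imprinted growth genes is near the background. After each library was brought to the same sum (a scale called TPM here), 4 of the 9 were higher and 0 were lower, where 53.7% of all genes were called, 50% higher and 3.68% lower. The groups did not overlap for Peg3 and Mest, with the cancers above, where 14.4% of all genes tested had every cancer above every control. No imprinted growth gene had every cancer below every control, which held for 19.8% of all genes.

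**Figure D1:**
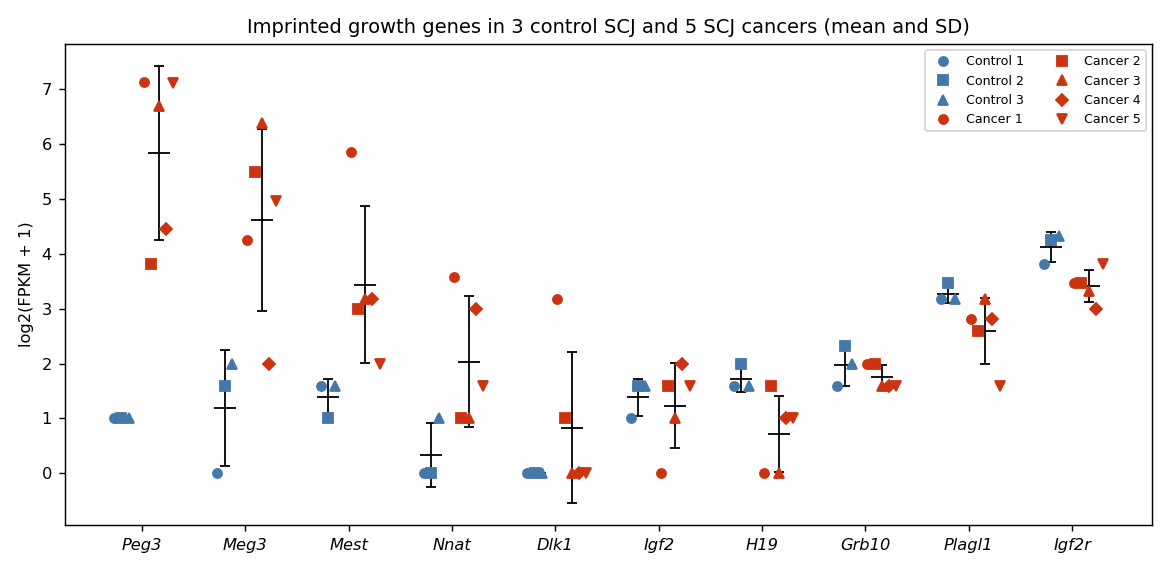
Levels of the 10 imprinted growth genes, as log2(FPKM + 1), in the 3 controls (blue) and 5 cancers (red), each symbol a library and each bar the mean and SD of a group. Peg3 and Mest have every cancer above every control, and cancer 1 is the highest library for Peg3, Mest, Nnat and Dlk1.

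Ordered by the median FPKM of the controls, Igf2r (18) came first, then Plagl1 (8), Grb10 (3) and, at 2 each, H19, Igf2, Meg3 and Mest, followed by Peg3 (1) and by Nnat and Dlk1 (0 each). From Grb10 downwards neighbouring genes in this order had overlapping values. In the cancers the order by median FPKM was Peg3 (103), Meg3 (30), Igf2r (10), Mest (8), Plagl1 (6), Grb10, Igf2 and Nnat (2 each), H19 (1) and Dlk1 (0). Every gene in that order overlapped the next over the 5 cancers. FPKM is a level per length of transcript, so these orders compare transcripts and not numbers of fragments.

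Peg3 (paternally expressed gene 3) encodes a large zinc finger protein with roles in fetal growth, maternal behaviour and cell death. It lies on chromosome 7, from 6705960 to 6730419 (mm10), on the minus strand. Its FPKM was 139, 13, 103, 21 and 137 in cancers 1 to 5 and 1 in each of the 3 controls. All 5 cancers were above all 3 controls, and cancers 1, 3 and 5 were well above cancers 2 and 4. In limma the log2 difference between the groups was 4.84 (SE 0.84, adjusted p = 0.0057). A two-sided exact permutation test of the difference gave p = 0.036, the smallest value it can give with 5 against 3. The adjusted p from limma ran from 0.0032 to 0.029 when each library was left out.

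Around Peg3, Peg3as and, less firmly, Zim1 also rose, and Usp29 did not pass the test. Zim1, a maternally expressed zinc finger gene whose start site lies 33.9 kb away, had 18, 2, 14, 1 and 17 FPKM in cancers 1 to 5 and was listed at 0 in all 3 controls (adjusted p = 0.028 from limma, 0.056 after quantile normalization). Zim1 was high in the same cancers as Peg3, namely 1, 3 and 5, and its call held in 2 of 8 fits that left out a library, those without cancer 2 or cancer 4, with an adjusted p from limma of 0.055 to 0.090 in the others. Usp29, a deubiquitinase gene that starts 0.097 kb from Peg3 on the opposite strand, had 2, 0, 1, 0 and 1 across the cancers, against 0 among controls (adjusted p = 0.17 from limma). Peg3as, an antisense RNA of 865 bases within the span of Peg3 (chromosome 7, 6706760 to 6707624, GRCm38.p6), had 234, 28, 222, 49 and 222 across the cancers, against 1, 1 and 2 among controls (limma log2 difference 5.60 with SE 0.77, adjusted p = 0.0027). Peg3as thus ran in parallel with Peg3 across the libraries. The labels name a directional kit, but the sources used here do not say that strand entered the quantification, so the shares of reads from Peg3 and from Peg3as are uncertain where they overlap.

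Meg3 (maternally expressed gene 3) is a long noncoding RNA of the Dlk1-Meg3 domain, known for restraining growth and often lost in human tumors. It lies on chromosome 12, from 109540996 to 109571729 (mm10), on the plus strand. Its FPKM was 18, 44, 83, 3 and 30 in cancers 1 to 5 and 0, 2 and 3 in controls 1 to 3. Cancers 1, 2, 3 and 5 were above every control, and cancer 4 was level with control 3. In limma the log2 difference between the groups was 3.42 (SE 0.96, adjusted p = 0.029, exact permutation p = 0.071). This call rests on few libraries, since the adjusted p from limma was over 0.05 without any of cancers 1, 2, 3 or 5 or any control (0.052, 0.056, 0.060 and 0.060, and 0.12, 0.075 and 0.062) and 0.0066 without cancer 4.

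The other noncoding RNAs of the domain followed the same libraries as Meg3, and were singled out after their values were seen. Rian, which lies downstream of Meg3 and holds many small nucleolar RNAs, had 33, 64, 143, 3 and 26 FPKM in cancers 1 to 5 and 2, 11 and 6 in the controls (limma log2 difference 2.35 with SE 1.08, adjusted p = 0.12). Mirg, a host of microRNAs, had 2, 5, 15, 0 and 3 across the cancers, against was listed at 0 among controls (adjusted p = 0.074 from limma). Both passed in TPM (adjusted p = 0.034 from limma for each), where 50% of all genes tested were higher, and with array weights (0.040 for Rian and 0.0083 for Mirg). Neither passed with quantile normalization (0.13 for Rian and 0.15 for Mirg). Of 8 fits that left out a library, each passed in 1, without cancer 4 (0.019 for Rian and 0.017 for Mirg). In the others the adjusted p from limma ran up to 0.32 for Rian and 0.17 for Mirg. For Meg3, Rian and Mirg cancer 3 was the highest library and cancer 4 the lowest cancer. The protein-coding genes of the domain, expressed from the paternal allele, stood low. Dlk1, a transmembrane protein related to Notch ligands that keeps preadipocytes immature (chromosome 12, 109452823 to 109463336), had 8, 1, 0, 0 and 0 FPKM in cancers 1 to 5 and 0 in all 3 controls. Rtl1, a gene derived from a retrotransposon, was at 0 in all 8 libraries, and Dio3, a thyroid hormone deiodinase, had at most 1.

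**Figure D2:**
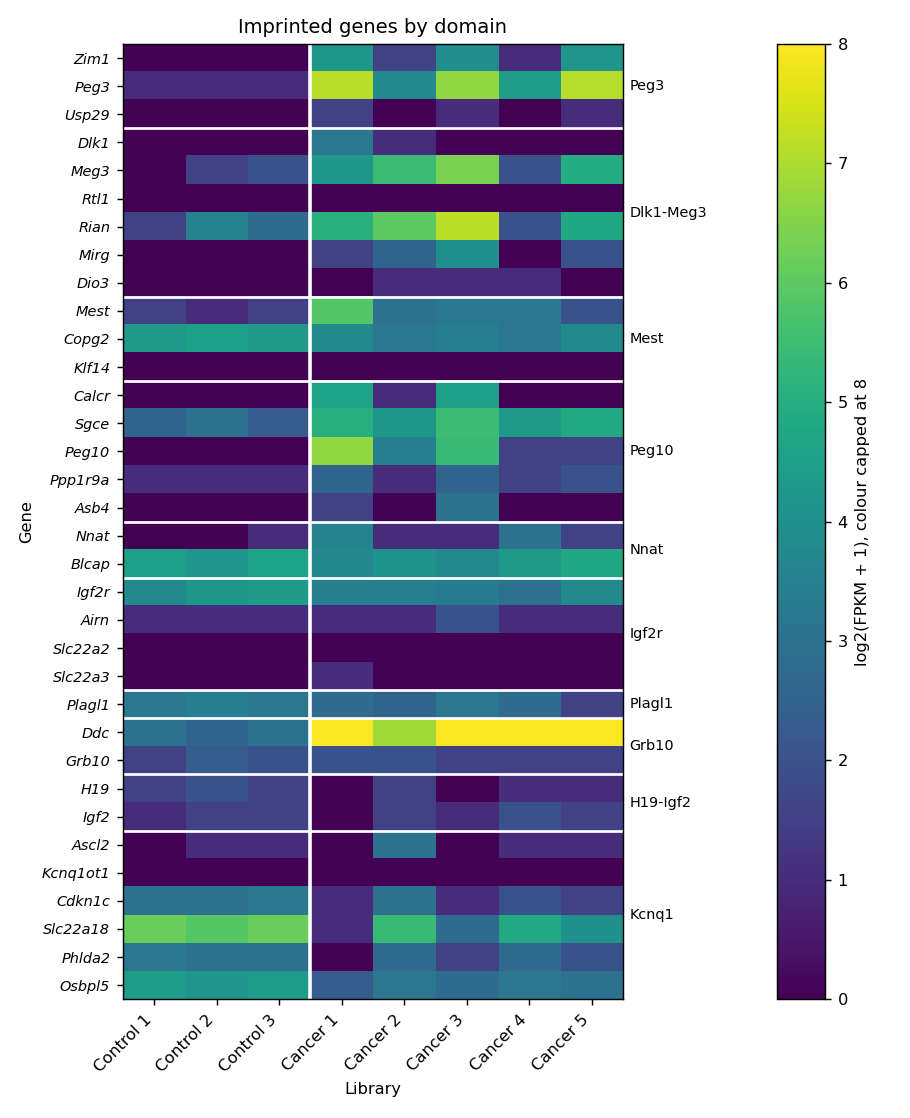
Levels of imprinted genes as log2(FPKM + 1), by colour, in the 3 controls and 5 cancers (columns), with genes grouped by imprinted domain (rows, domain named at the right). Zim1 and Peg3 are bright in cancers 1, 3 and 5, Meg3, Rian and Mirg in cancer 3, and Peg10 in cancers 1 and 3.

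Promoter windows of 250 bases before a start site (RefSeq, GRCm38.p6) were available for 9 of the 10 genes, 16 windows in all. Since Peg3 and Meg3 both rose, letters that they share were looked for. A window of each holds TGACGTCA, the palindrome bound by CREB and related factors, which was found in no window of the other 7 genes and in 1.55% of 32851 windows of the same length. The choice of this motif was made with the windows in view, and a match of letters does not show that a factor binds there. The 30 bases around it, with the motif in capitals, read 5′ to 3′ on the strand of each gene as follows, at chr12:109540928-109540957 for Meg3 and chr7:6730579-6730608 for Peg3.
Meg3: gcagaatgcgcTGACGTCAaagaccacccc
Peg3: actgactccgtTGACGTCAactccgtgcct
The motif ends 49 bases before the Meg3 start site. In the Peg3 window it lies 170 bases before the start site of that window (6730419) and, read on the other strand, begins 32 bases into Usp29 as RefSeq places it. The 0.097 kb between Peg3 and Usp29 given above counts from another Peg3 start, at 6730462.

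The whole Meg3 window (chr12:109540746-109540995, plus strand) is shown with a window of Mest (chr6:30737800-30738049, plus strand), a gene whose groups did not overlap. Mest has 3 windows, and the one shown lies before a start site inside the span of the gene, as does another that overlaps it. The window before the first start site (chr6:30733256-30733505) holds no TGCCGC and 7 CG dinucleotides. A second window of Meg3 holds neither. Capitals mark TGACGTCA and, on either strand, TGCCGC, the core recognized by ZFP57, a factor that protects imprints. TGCCGC was found in 8.68% of all windows and, beyond Meg3 and Mest, in the window of Plagl1.
Meg3: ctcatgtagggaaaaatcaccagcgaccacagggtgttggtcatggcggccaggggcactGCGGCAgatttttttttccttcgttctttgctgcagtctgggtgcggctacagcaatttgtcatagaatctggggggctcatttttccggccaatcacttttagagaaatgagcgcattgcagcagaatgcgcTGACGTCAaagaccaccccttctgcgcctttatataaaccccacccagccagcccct
Mest: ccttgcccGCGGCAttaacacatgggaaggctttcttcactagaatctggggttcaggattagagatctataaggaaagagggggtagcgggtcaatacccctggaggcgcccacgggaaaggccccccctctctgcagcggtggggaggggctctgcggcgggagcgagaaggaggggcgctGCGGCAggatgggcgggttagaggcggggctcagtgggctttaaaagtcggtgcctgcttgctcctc
The Meg3 window shown holds 10 CG dinucleotides and this Mest window 14, and 37.8% and 29.4% of all windows hold at least as many. GGGGCCCC, a sequence bound by PLAGL1, was found in 0.889% of all windows and, among the imprinted growth genes, in that of Peg3 only.

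Mest (mesoderm specific transcript, also Peg1) encodes an enzyme of the alpha/beta hydrolase fold and is known for its rise in growing adipose tissue. It lies on chromosome 6, from 30733506 to 30748466 (mm10), on the plus strand. Its FPKM was 57, 7, 8, 8 and 3 in cancers 1 to 5 and 2, 1 and 2 in controls 1 to 3. Every cancer was above every control, and cancer 1 was far above the rest. In limma the log2 difference between the groups was 2.05 (SE 0.77, adjusted p = 0.072, exact permutation p = 0.036). Without cancer 1 it was 1.44 (adjusted p = 0.024 from limma), so the smaller difference among the other libraries passed the test. The adjusted p from limma was 0.050 without cancer 5, 0.091 to 0.19 when any other library was left out, and 0.12 after quantile normalization. Copg2, which overlaps the end of Mest by 913 bases on the opposite strand and encodes a coat protein of transport vesicles, had 13, 8, 10, 8 and 13 across the cancers, against 19, 22 and 19 among controls. Copg2 fell with a log2 fold change of -0.91 (adjusted p = 0.012 from limma), which was 0.0069 in TPM and had an adjusted p of 0.053 without control 2.

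Nnat (neuronatin) encodes a small proteolipid of the endoplasmic reticulum found in brain and in hormone-secreting cells. The table gives it the span of Blcap (chromosome 2, 157556362 to 157566361), the gene in whose intron it lies. Its FPKM was 11, 1, 1, 7 and 2 in cancers 1 to 5 and 0, 0 and 1 in controls 1 to 3. Cancers 1, 4 and 5 were above every control, and cancers 2 and 3 were level with control 3. In limma the log2 difference between the groups was 1.70 (SE 0.67, adjusted p = 0.081, exact permutation p = 0.11). Blcap itself, which encodes a protein with roles in cell death, had 12 to 26 FPKM across the cancers, against 17 to 24 among controls (limma log2 difference -0.31, adjusted p = 0.36).

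Igf2r, the receptor that carries IGF2 to lysosomes for destruction and sorts lysosomal enzymes, was the imprinted growth gene most abundant in the controls. It lies on chromosome 17, where the table gives a span of 12682406 to 12868143 (mm10), on the minus strand. Its FPKM was 10, 10, 9, 7 and 13 in cancers 1 to 5 and 13, 18 and 19 in controls 1 to 3. Cancers 1 to 4 were below every control, and cancer 5 was level with control 1. Igf2r fell with a log2 fold change of -0.72 (SE 0.21, adjusted p = 0.033 from limma, exact permutation p = 0.071), but in TPM it was 0.19 (adjusted p = 0.58 from limma). That rescaling moved the log2 fold change of the median gene from -0.04 to 0.81. Relative to this median Igf2r stood at -0.68 on the deposited scale and at -0.62 on the rescaled one. The call was lost without cancer 1 (adjusted p = 0.055 from limma), cancer 3 (0.072), control 2 (0.11) or control 3 (0.11). Airn, the noncoding RNA antisense to Igf2r that silences its paternal copy, had 1 FPKM in each library but cancer 3, which had 3.

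Igf2, the fetal insulin-like growth factor, and H19, the noncoding RNA that shares its enhancers, were low in both tissues. Igf2 (chromosome 7, 142650768 to 142670356) had 0, 2, 1, 3 and 2 FPKM in cancers 1 to 5 and 1, 2 and 2 in controls 1 to 3 (limma log2 difference -0.16 with SE 0.44, adjusted p = 0.80). The groups overlapped, and the sign of this difference changed without cancer 1 (0.15). H19 (chromosome 7, 142575532 to 142578146) had 0, 2, 0, 1 and 1 FPKM across the cancers, against 2, 3 and 2 among controls (limma log2 difference -1.01 with SE 0.39, adjusted p = 0.079). Cancers 1 and 3 were at 0, and cancer 2 was level with controls 1 and 3. Without cancer 2 the difference of H19 passed (-1.22, adjusted p = 0.030 from limma). With values this low, rounding limits what can be seen. Mir675 and Mir483, the microRNAs within these genes, and Ins2, the next gene beyond Igf2, had 0 in 8, 8 and 7 libraries, and mature microRNAs are not captured by libraries of polyadenylated RNA.

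Grb10 encodes an adaptor that damps signalling of the insulin and IGF1 receptors. It lies on chromosome 11, from 11930499 to 12037420, and had 3, 3, 2, 2 and 2 FPKM in cancers 1 to 5 and 2, 4 and 3 in controls 1 to 3. The groups overlapped (limma log2 difference -0.22 with SE 0.21, adjusted p = 0.44). Ddc, the neighbour of Grb10 and the decarboxylase that makes serotonin and dopamine, had 7, 5 and 7 FPKM in controls 1 to 3 and rose to 367, 116, 288, 260 and 308 in cancers 1 to 5 (limma log2 difference 5.11 with SE 0.36, adjusted p = 0.00041). Ddc was thus over 100 in every cancer while Grb10, whose start site lies 139 kb away, stayed at 2 or 3. On the other side of Grb10, the actin nucleator Cobl had 1 to 7 FPKM across the cancers, against 15, 28 and 23 among controls (limma log2 difference -2.38, adjusted p = 0.0083).

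Plagl1 (also Zac1) encodes a zinc finger transcription factor that arrests the cell cycle and acts on other imprinted genes. It lies on chromosome 10, from 13090788 to 13131695, and had 6, 5, 8, 6 and 2 FPKM in cancers 1 to 5 and 8, 10 and 8 in controls 1 to 3. Cancers 1, 2, 4 and 5 were below every control and cancer 3 was level with controls 1 and 3 (limma log2 difference -0.68 with SE 0.34, adjusted p = 0.15). After rescaling to the same sum its log2 fold change was 0.17. Its neighbour Sf3b5, a splicing factor subunit, had 39 to 62 across the cancers, against 44 to 63 among controls, and the neighbour of Nnat, the kinase Src, had 13 to 23 and 27 to 38 (limma log2 difference -0.95, adjusted p = 0.013, but -0.021 in TPM with adjusted p = 0.94, and adjusted p = 0.058 without control 1).

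**Figure D3:**
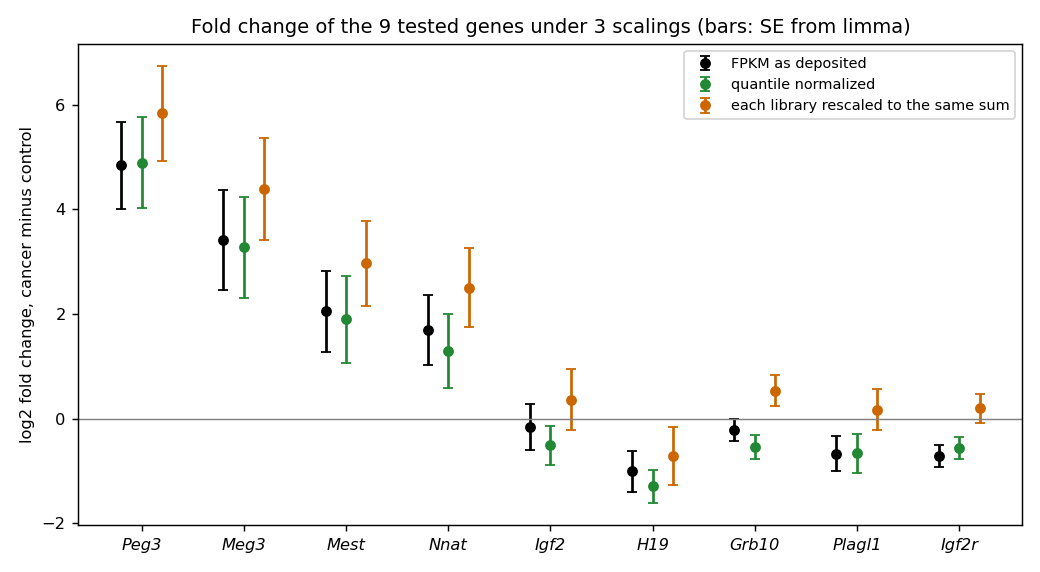
Log2 fold change (cancer minus control) with its SE from limma for the 9 imprinted growth genes tested, for FPKM as deposited (black), after quantile normalization (green) and in TPM, with libraries brought to the same sum (orange). Peg3, Meg3, Mest and Nnat lie above 0 on all 3 scales, H19 lies below, and Igf2, Grb10, Plagl1 and Igf2r change sign with the rescaling.

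Among 46 other imprinted genes, listed by name, 33 passed the filter, 8 were higher (24.2%) and 2 were lower (6.06%), where 16.2% and 18.3% of all genes tested were, and their median log2 fold change was 0.60, against -0.04 for all genes tested. When each library was left out, 3 to 11 were higher and 1 to 5 were lower, with 3, 4 and 5 higher without controls 1, 2 and 3, 5 lower without cancer 2 and 1 lower without control 2. With quantile normalization 6 were higher (18.2%) and 2 were lower (6.06%) with a median of 0.30, where 13.2% of all genes were higher and 13.2% lower with a median of -0.0080. In TPM 16 were higher (48.5%) and 1 was lower, where 50% and 3.68% of all genes were, and the medians were 1.18 and 0.81. The genes with the largest fold changes among those called higher were Ddc, Peg10 and Zim1. Peg10, a placental gene derived from a retrotransposon (chromosome 6, 4747306 to 4760516), had 104, 10, 41, 2 and 2 FPKM in cancers 1 to 5 and was listed at 0 in the controls (adjusted p = 0.045 from limma, 0.077 after quantile normalization). The call of Peg10 held in 2 of 8 fits that left out a library, those without cancer 4 or cancer 5, with an adjusted p of up to 0.12. Unlike Peg3, Peg10 was low in cancer 5. Sgce, which encodes a sarcoglycan and starts beside Peg10, had 31, 18, 44, 19 and 28 across the cancers, against 5, 7 and 4 among controls (limma log2 difference 2.15, adjusted p = 0.0032). Calcr, the calcitonin receptor gene of the same domain, had 24, 1, 22, 0 and 0 across the cancers, against 0 among controls (adjusted p = 0.23 from limma), again with cancers 1 and 3 the highest.

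Beyond these domains Gnas, which encodes the stimulatory G protein alpha subunit, had 476, 473 and 493 FPKM in controls 1 to 3 and rose to 4534, 1773, 1802, 1036 and 1795 in cancers 1 to 5 (limma log2 difference 2.01, adjusted p = 0.013, and 0.052 without control 1). Snrpn, a spliceosomal protein gene most active in neurons, rose from 4, 5 and 6 to 22, 15, 20, 18 and 19 (limma log2 difference 1.73, adjusted p = 0.0010). Both genes, Sgce and Calcr were picked after their values were seen. The genes called lower were Copg2 and Osbpl5, a lipid transfer protein gene, which had 4 to 8 across the cancers, against 17 to 20 among controls (limma log2 difference -1.42, adjusted p = 0.0035, and -0.55 in TPM with adjusted p = 0.040). The list held 10 genes at 0 in all 8 libraries.

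For the IGF2 pathway, 18 genes of its receptors, binding proteins and RNA-binding regulators were listed and 14 passed the filter. Of these, 2 were higher (14.3%) and 1 was lower (7.14%), close to or below the 16.2% and 18.3% of all genes tested. In TPM 7 were higher (50%, as among all genes) and 0 were lower, and with quantile normalization 3 were higher (21.4%, against 13.2% of all genes) and 1 was lower. When each library was left out, 1 to 3 were higher and 0 to 3 were lower. Igfbp3 had 35, 34, 40, 90 and 22 FPKM in cancers 1 to 5 and 12, 10 and 6 in the controls (limma log2 difference 2.02, adjusted p = 0.012), and Igfbp4 had 62, 123, 59, 86 and 47 against 20, 19 and 15 (limma log2 difference 1.94, adjusted p = 0.0041). Both encode proteins that bind IGFs in the extracellular fluid. Igf1r, the receptor that transmits the growth signal of IGF1 and IGF2, fell from 4, 6 and 5 to 2, 2, 1, 3 and 2 (limma log2 difference -1.02, adjusted p = 0.015, and -0.33 with adjusted p = 0.36 after rescaling to the same sum). Without control 2 or control 3 the adjusted p of Igf1r from limma was 0.063 or 0.051, and that of Igfbp3 was 0.050 without control 3. Igf2bp1, Igf2bp3 and Lin28b, fetal RNA-binding regulators of Igf2, were at 0 in all 8 libraries.

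Of 13 genes that maintain imprints, 10 passed the filter, 1 was higher (10%) and 1 was lower (10%), where 16.2% and 18.3% of all genes tested were. In TPM 6 were higher (60%, against 50% of all genes) and 0 were lower, and with quantile normalization 2 were higher (20%, against 13.2% of all genes) and 1 was lower. When each library was left out, 0 to 2 were higher and 0 or 1 was lower. Dnmt1, the methyltransferase that copies DNA methylation at replication, rose from 11, 11 and 10 FPKM to 33, 19, 29, 14 and 24 (limma log2 difference 1.03, adjusted p = 0.022). The adjusted p of Dnmt1 from limma was over 0.05 without cancer 3 (0.052), control 1 (0.070), control 2 (0.067) or control 3 (0.076), and without cancers 1 and 5 together (0.078). Dnmt3l, a cofactor of methylation in germ cells, was the gene called lower, with 1 FPKM in each control and in cancer 4 and 0 in the other cancers, a difference of 1 rounding step that passed in 1 of the 8 fits that left out a library. Ctcf, which insulates Igf2 from its enhancers, had 16 to 23 across the cancers, against 16 to 19 among controls, and Zfp57 had at most 1.

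Markers of other cell types moved with some of these values. The 5 adipocyte markers summed to 246, 9, 1, 0 and 0 FPKM in cancers 1 to 5 and to 0 in the controls, and Adipoq, which defines adipocytes, was at 49 in cancer 1, 1 in cancer 2 and 0 in the other libraries. Mest, Nnat, Dlk1 and Peg10 were highest in the same library, cancer 1, as were Peg3, Zim1, Calcr, Gnas and other genes. Peg3 had 139 FPKM in cancer 1 and 137 in cancer 5. The part of adipocytes in these values was not tested. The 6 leukocyte markers summed to 314 in cancer 1, and to between 35 and 103 in the remaining cancers, with 21 to 44 in the controls.

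The sum of the 8 hepatocyte markers was 607 in cancer 5, between 5 and 63 elsewhere among the cancers, and 2 or 3 in the controls. Without cancer 5 the log2 fold change of Peg3 was 4.52 (adjusted p = 0.013 from limma), and the part of hepatocytes in its level was not tested. The 7 adrenal markers summed to 1 to 10 across the cancers, against 2 to 4 among controls, with Cyp11b1, Hsd3b1, Dbh and Pnmt at 0 in all libraries. The 8 fibroblast markers summed to 46 to 306 across the cancers, against 63 to 121 among controls. The gland sum was 52913 and 35053 in cancers 2 and 4, where Peg3 was low, and 520, 4058 and 11561 in cancers 1, 3 and 5, where it was high. The part of normal gland in this order was not tested. The 5 squamous markers summed to 1 to 1614 across the cancers, against 2131 to 3684 among controls, and the 5 general epithelial markers to 725 to 4650 and 5558 to 7755. These epithelial markers did not all move together. Epcam had 314 to 592 FPKM across the cancers, against 159 to 183 among controls (adjusted p = 0.0092 from limma). Cdh1, Krt8, Krt18 and Krt19 had lower means in the cancers. The smooth muscle, skeletal muscle, endothelial, and neuron and glia sums were 27 to 1252, 1 to 13, 12 to 38 and 41 to 97 across the cancers, against 246 to 411, 5 to 6, 6 to 9 and 3 to 5 among controls.

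**Figure D4:**
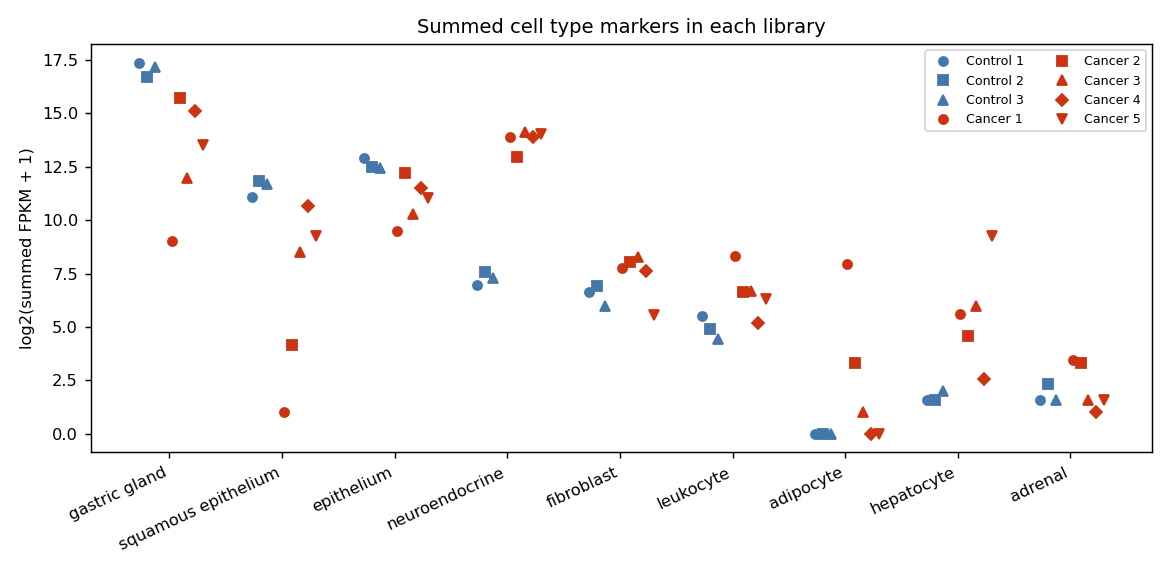
Summed FPKM of cell type marker lists, as log2(sum + 1), in the 3 controls (blue) and 5 cancers (red), each symbol a library. Adipocyte markers stand out in cancer 1 (246) and hepatocyte markers in cancer 5 (607), and every cancer lies below every control for gastric gland markers and above for neuroendocrine markers.

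For 8 of the imprinted growth genes, the genes with the most similar pattern over the 8 libraries were found by the root mean square difference of centred log2(FPKM + 1) among genes with a mean FPKM of at least 5. For Meg3 the nearest was Rian (0.686), and for Peg3 it was Peg3as (0.434), so that in both cases the nearest gene lay in the same domain. Peg3as lies within the span of Peg3 and may share reads with it, so their close match is no separate result. The second for Meg3 was Vwa5b2 (0.808). Mest was nearest to the lymphocyte genes Cd52 (0.398) and Il2rg (0.422), both highest in cancer 1. Nnat was nearest to C1qtnf4 (0.466) and Ankrd37 (0.604). Igf2r (Bcas3 at 0.0898 and Herpud1 at 0.0956), H19 (Pkp4 at 0.151 and Cgnl1 at 0.21), Igf2 (Ptk7 at 0.188 and Sssca1 at 0.199) and Plagl1 (Ankmy2 at 0.237 and Cdk5rap1 at 0.255) had smaller differences from their matches. They also spanned less on the log2 scale, 1.3 to 2 against 3.6 to 6.4 for Nnat, Mest, Peg3 and Meg3. The measure depends on this span, so a smaller difference is not a closer match. Grb10, which spanned less than 1 on the log2 scale, and Dlk1, which did not pass the filter, were not matched.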

How the data were processed

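Polyadenylated RNA of 5 SCJ cancers and 3 control SCJ was sequenced from directional libraries. The authors trimmed reads with cutadapt 1.8, aligned them with TopHat2 2.0.13 (submitters' processing notes), quantified UCSC mm10 genes with cuffquant and made FPKM with Cuffnorm 2.2.1. The deposited FPKM were 100% whole numbers, so they had been rounded and were treated as a score and not as counts. Depth is unknown, so no counting intervals or detection limits are given. All 8 measurement columns were mapped to samples by name.

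The 14357 of 23361 genes that reached 1 FPKM in 3 or more libraries were compared on log2(FPKM + 1) with limma 3.58.1 (eBayes with trend, R 4.3.3), two-sided, with Benjamini-Hochberg adjustment over all genes tested and a threshold of 0.05. Fold changes on this scale understate changes of low genes. The fit was tested on simulated data. Single genes also had a two-sided exact permutation test over 56 splits. The methods of the study give no test per gene.

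The members and lists were chosen with earlier results of these data known. Genes named are the 10 members, called genes of each list (the 3 with the largest fold change per direction where over 6 were called), RefSeq neighbours in the table, the 2 genes nearest in pattern, and markers, with further genes named as chosen after their values were seen. A gene near Peg3 in pattern is not reported here. All 160 list entries were in the table. Sequences and promoter windows came from RefSeq (GRCm38.p6), strands from GENCODE M21.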

Additional observations from a re-analysis of the deposited data

Results flagged for a closer look

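A single cancer stood apart from the other 4 in 4 of 44 results examined on the log2 scale, by the gap to its nearest neighbour as a share of the range of the 5 cancers. Chance flags about 1 in 20 groups. Airn had 3 FPKM in cancer 3 and 1 in each remaining cancer (a gap of 1), and Dnmt3l 1 in cancer 4 and 0 in the others (gap of 1), both steps of rounded values. The summed neuroendocrine markers were lowest in cancer 2 (8047 FPKM, gap of 0.801) and the summed fibroblast markers lowest in cancer 5 (46 FPKM, gap of 0.766). None of the 10 imprinted growth genes stood apart by this measure, although the FPKM of Mest was 57 in cancer 1 and 3 to 8 in the other cancers.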

How the results depend on the processing

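All alternatives but 1 were planned. The joint removal of cancers 1 and 5 was chosen after seeing the data. Peg3, Meg3, Mest and Nnat kept a positive and H19 a negative log2 fold change under every alternative that gave them a value. Genes called higher among all tested numbered 2326, and 1244 with a mean FPKM of at least 5, 7176 after rescaling to the same sum (TPM), 3909 with array weights and 982 with the replicate block. Genes called lower numbered 2622, and 528, 4239 and 552 with TPM, array weights and the block. When each library was left out they numbered 1362 to 2459 and 1186 to 2773. Imprinted growth genes called higher numbered 2, and 4 with TPM, 4 with array weights and 1 with the block, and those called lower 1, and 0, 2 and 0. When each library was left out these were 1 to 2 and 0 to 2.

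With TPM the log2 fold change was 0.36 for Igf2, 0.19 for Igf2r, 0.53 for Grb10 and 0.17 for Plagl1, all reversed, and Mest (2.97) and Nnat (2.51) passed the threshold. With array weights H19 (-1.42), Mest (2.25) and Nnat (1.68) passed, as did H19 with quantile normalization (-1.30) and Nnat with a pseudocount of 0.1 (3.70). Igf2r no longer passed with quantile normalization (-0.57) or the replicate block (-0.71), nor Peg3 with the block (4.88, adjusted p = 0.058 from limma). Without cancers 1 and 5 Igf2 reversed to 0.14, Meg3 no longer passed (3.43, adjusted p = 0.11 from limma) and Mest passed (1.72). When each library was left out the log2 fold change ran from -1.22 to -0.83 for H19, -0.35 to 0.15 for Igf2, -0.88 to -0.61 for Igf2r, 2.82 to 4.08 for Meg3, 4.52 to 5.35 for Peg3, -0.41 to -0.041 for Grb10, -0.82 to -0.42 for Plagl1, 1.44 to 2.41 for Mest and 1.31 to 2.03 for Nnat. Among other genes, TPM reversed Blcap (0.63), Copg2 (0.0069) and Sf3b5 (0.93), and Sf3b5 was also reversed with quantile normalization (0.39), array weights (0.032) and without cancers 1 and 5 (0.13), as was Airn with quantile normalization (-0.14). Sf3b5 ran from -0.14 to 0.11 when each library was left out. For all of these the cause was not tested. The controls were paired by age, and the sources used here do not say that the numbers of the libraries mark pairs. The deviations from the group means correlated, between a cancer and the control of its number, at -0.021, -0.19 and -0.10. With so few pairs these values do not settle whether the libraries are paired. Cancers 4 and 5 have no control of their number, so under the block the difference comes from cancers 1 to 3. A call lost under the block thus rests on fewer libraries, and whether the effect is weaker was not tested.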

Other observations

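In the Kcnq1 domain on chromosome 7, 3 genes picked after their values were seen had lower means in the cancers without passing the test, beside Osbpl5, which passed (limma log2 difference -1.42, adjusted p = 0.0035). Cdkn1c, a maternally expressed inhibitor of cyclin-dependent kinases, had 1, 7, 1, 3 and 2 FPKM in cancers 1 to 5 and 7, 7 and 8 in the controls (limma log2 difference -1.34, adjusted p = 0.052, and -0.66 in TPM). Phlda2, which limits growth of the placenta, had 0, 6, 2, 6 and 3 across the cancers, against 8, 7 and 7 among controls (limma log2 difference -1.22, adjusted p = 0.16, and -0.63 in TPM). Slc22a18, a transporter gene of the same domain, had 1, 41, 6, 28 and 15 across the cancers, against 73, 58 and 73 among controls (limma log2 difference -2.49, adjusted p = 0.070, and -1.65 in TPM). Ascl2, a transcription factor gene of the same domain, had a log2 difference of the other sign (0.33, adjusted p = 0.72 from limma). In Cdkn1c, Phlda2 and Slc22a18 cancer 2 was the highest cancer or level with it and cancer 1 was the lowest cancer or level with it. The gastric gland markers summed to 52913 FPKM in cancer 2 and to 520 in cancer 1, and their part in this order was not tested.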
